A study of Homo sapiens with 5 samples.

Results

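The genes described here are the interferon-stimulated genes and the genes that carry the type I interferon signal, a set of 47 gene names covering antiviral effectors, sensors of foreign RNA, the interferon receptor, its kinases and the IRF and STAT transcription factors. Genes were taken by symbol, and 41 of the 47 were found among the 11976 genes of the authors' deposited table; MX1, OAS1, OAS2, OAS3, IFI16 and IFITM1 were not analysed here. The cells were HUDEP-2, an immortalised line of erythroid progenitors that came from cord blood. Total RNA was sequenced from 3 libraries labelled as a knockout of ERF (a transcriptional repressor of the ETS family) and from 2 libraries labelled as wild type, whose titles carry the letters SCR, which no label explains. The labels do not say whether the knockout libraries come from 1 clone or several, at which position ERF was edited, or whether replicate libraries were grown separately; p-values thus cover only the spread among these samples, which may be technical.

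Type I interferons bind a receptor of the chains IFNAR1 and IFNAR2, whose kinases TYK2 and JAK1 phosphorylate STAT proteins, among them STAT2. STAT2 joins IRF9 in a complex that binds the interferon-stimulated response element in the promoters of the effector genes. The effectors bind or degrade viral RNA, block translation, hold virus particles at the membrane or tag proteins with the ubiquitin-like modifier ISG15. Sensors such as RIG-I (gene DDX58) start the same circuit from inside the cell through IRF3 and IRF7. Many of these genes are also transcribed at a low basal level in cells that no interferon has reached.

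The authors' deposited table holds 1 comparison of wild-type and mutant cells, giving per gene a log2 fold change, the mean log2 CPM (reads of a gene relative to all reads of a library, averaged over libraries), an F statistic and its raw and adjusted p, but no values per library. Levels per library, the overlap of the groups and the depth of each library therefore cannot be given. The header names no group as the base of the fold change. The sign was set so that the γ-globin gene HBG2 is higher in the libraries labelled knockout, because reactivated γ-globin is named in the title of the series, and its own value of 1.88 ± 0.22 (SE, edgeR adjusted p = 7.64e-05) in the authors' deposited table is not a result. Under this sign the RNA of ERF itself was higher in the libraries labelled knockout, against that label, at 0.89 ± 0.07 on the log2 scale (derived SE, edgeR adjusted p = 6.44e-06) in the authors' deposited table. Before they were multiplied by -1, the deposited values were -1.88 for HBG2 and -0.89 for ERF. The derived standard error of HBG2 was 2.40 times the median of the 200 genes nearest in mean expression, at 3.18 mean log2 CPM. For ERF it was 1.38 times that median, at 5.88 mean log2 CPM. With the opposite sign, ERF is lower in the libraries labelled knockout and every direction below is exchanged. The word "called" below means an adjusted p under 0.05 in the authors' deposited table, and each standard error and 95% interval was derived from the fold change and F.

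All 20 erythroid markers looked for were in the authors' deposited table, at 3.67 to 12.48 mean log2 CPM, and in the libraries labelled knockout 12 of them (60%) were called higher and 1 (5%) lower, against 24.9% and 25.9% of all genes. The shares in the interferon set, given below, were 61.0% higher and 12.2% lower. Markers of other blood cells were in it in part: 2 of 12 for monocytes and macrophages (LYZ and FCGR1A), 1 of 10 for dendritic cells (TCF4), 1 of 8 for megakaryocytes (ITGA2B) and 0 of 15 for lymphocytes, with none called (edgeR, 0 at an unadjusted p below 0.05), and the remaining ones were not analysed here. The part that a difference in maturation or in cell mixture has in the results below was not tested. In bulk RNA, a change in the number of cells that express a gene and a change in RNA per cell cannot be told apart.

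Interferon genes were mostly higher in the libraries labelled knockout, led by a small group of effectors. Of the 41 genes, 25 (61.0%) were called higher, 5 (12.2%) lower and 11 did not pass. Over all genes of the authors' deposited table, 50.9% were called, 24.9% higher and 25.9% lower, so calls were common in general; of the 41 genes, 73.2% were called. The median log2 fold change over the 41 genes was 0.27, against -0.00186 over all genes. At least 2-fold higher and called were 7 of the 41, where 1.01% of all genes were, and 0 of the 41 were at least 2-fold lower, where 2.26% of all genes were (edgeR; 5 of the 41 were lower at an unadjusted p below 0.05). Without the 8 genes whose exons overlap another measured gene, the counts were 20 higher and 3 lower of 33. This rule leaves out RSAD2 and CMPK2, which share 14 bases. It keeps genes that overlap a gene not in the authors' deposited table, such as IRF9 (48.4% of exonic bases) and IFNAR2 (44.2%). The set was chosen with earlier results of these data known, so these counts describe it and do not test it.

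**Figure D1:**
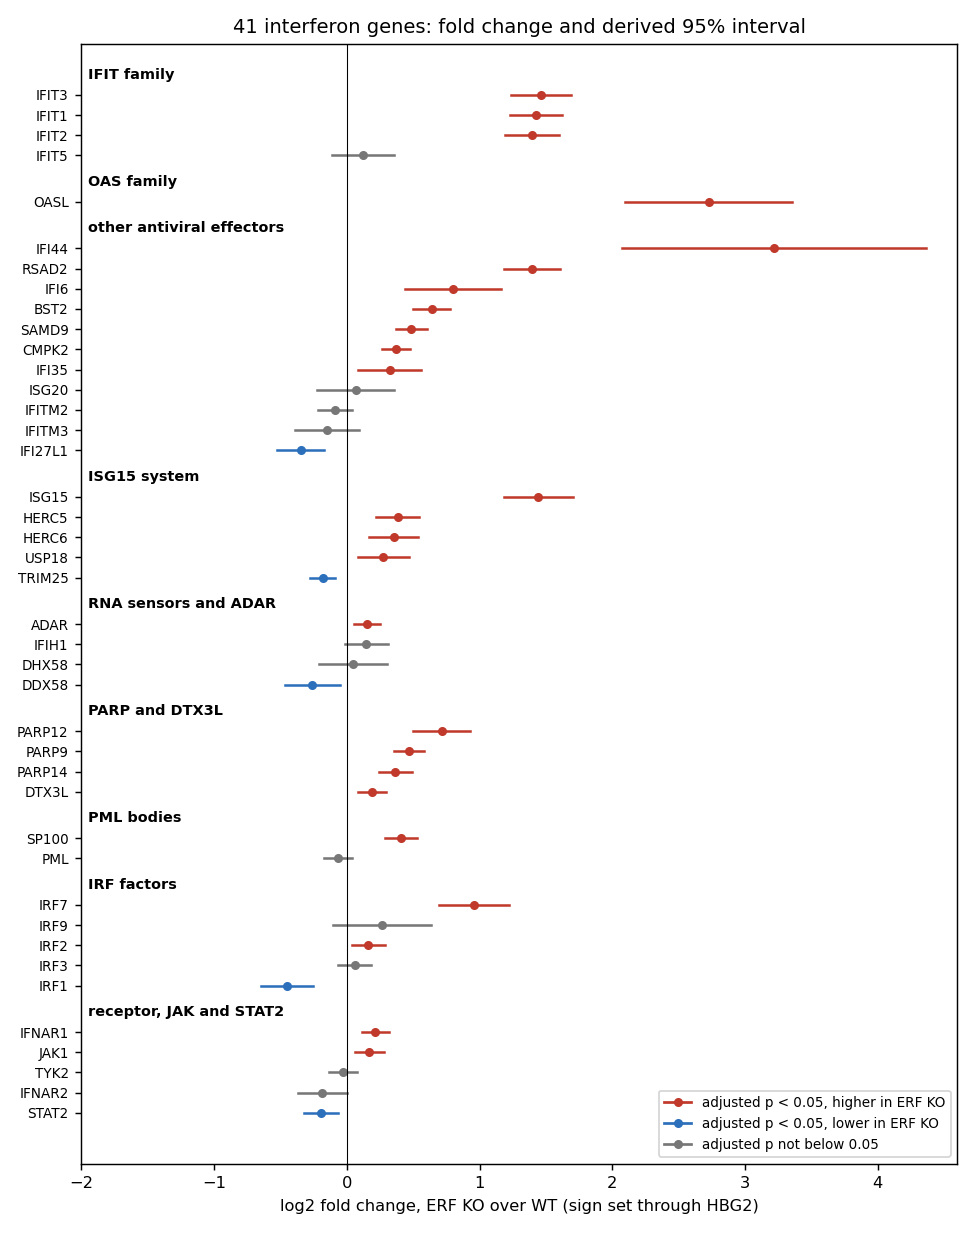
Log2 fold change of 41 interferon genes (x axis, libraries labelled ERF knockout over wild type, sign set through HBG2), grouped by role. Points are the deposited fold changes and bars the derived 95% intervals; red is called higher, blue called lower and grey not past the threshold. IFI44 and OASL lie farthest right with wide intervals, and IFIT1, IFIT2, IFIT3, ISG15 and RSAD2 lie close together between 1.39 and 1.46.

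Promoters of selected genes are shown first, picked after values were seen. All but that of IRF1 hold the core of the response element to which the complex with STAT2 and IRF9 is known to bind. Of the 7 genes raised at least 2-fold, 5 had a RefSeq promoter window and each of the 5 held this core in at least 1 window. IFIT5 is shown as a neighbour that was not called, DTX3L for a core it shares with PARP9, and IRF1 as the gene with the lowest value. For IFIT3 and RSAD2, which have more than 1 annotated start, the downstream start is shown, and for IFI44 the upstream start. The window at the upstream start of RSAD2 holds no response element core. Each sequence runs 5′ to 3′ on the strand of its gene from 170 bases before the RefSeq start of transcription to the first 10 transcribed bases (GRCh38.p14, which is not the build of the deposited data). In all but IRF1, capitals mark the core of the interferon-stimulated response element, which is GAAA, any 2 bases and GAAA again, or its reverse complement (TTTC, any 2 bases, TTTC) where the core lies on the other strand; overlapping matches form 1 run. In IRF1, capitals mark the STAT dimer core TTCNNNGAA.
ISG15 (chr1:1013327-1013506, plus strand): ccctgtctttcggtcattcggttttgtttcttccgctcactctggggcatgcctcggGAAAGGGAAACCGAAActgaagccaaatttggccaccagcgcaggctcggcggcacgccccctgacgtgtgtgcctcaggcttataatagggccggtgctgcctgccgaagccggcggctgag
IFIT1 (chr10:89392453-89392632, plus strand): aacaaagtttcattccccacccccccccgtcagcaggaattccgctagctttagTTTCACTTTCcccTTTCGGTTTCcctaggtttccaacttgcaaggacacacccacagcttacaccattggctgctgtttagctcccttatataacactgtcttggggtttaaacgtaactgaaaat
IFIT3 (chr10:89332359-89332538, plus strand): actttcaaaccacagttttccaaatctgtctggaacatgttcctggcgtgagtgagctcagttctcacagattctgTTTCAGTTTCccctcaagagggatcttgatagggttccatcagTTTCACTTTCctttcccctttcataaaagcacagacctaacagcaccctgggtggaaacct
IFIT5 (chr10:89414398-89414577, plus strand): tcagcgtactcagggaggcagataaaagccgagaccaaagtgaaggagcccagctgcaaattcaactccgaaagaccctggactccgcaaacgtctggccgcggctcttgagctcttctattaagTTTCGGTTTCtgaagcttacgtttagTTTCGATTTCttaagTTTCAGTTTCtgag
RSAD2 (chr2:6877607-6877786, plus strand): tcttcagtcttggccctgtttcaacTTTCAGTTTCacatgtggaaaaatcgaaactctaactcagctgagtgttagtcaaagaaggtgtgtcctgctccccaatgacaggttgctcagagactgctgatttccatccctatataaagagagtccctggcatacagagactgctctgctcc
IFI44 (chr1:78649619-78649798, plus strand): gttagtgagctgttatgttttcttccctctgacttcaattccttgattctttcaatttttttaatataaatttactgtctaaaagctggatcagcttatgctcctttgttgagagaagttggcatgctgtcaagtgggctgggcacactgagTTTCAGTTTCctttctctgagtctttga
DTX3L (chr3:122564168-122564347, plus strand): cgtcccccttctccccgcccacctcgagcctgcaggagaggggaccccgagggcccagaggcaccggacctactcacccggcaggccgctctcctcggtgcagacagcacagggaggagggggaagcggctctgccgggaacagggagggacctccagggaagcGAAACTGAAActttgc
IRF1 (chr5:132490764-132490943, minus strand): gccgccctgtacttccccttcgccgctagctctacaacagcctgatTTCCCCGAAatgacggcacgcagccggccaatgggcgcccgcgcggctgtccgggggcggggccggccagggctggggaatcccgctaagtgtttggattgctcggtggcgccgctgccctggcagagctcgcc

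A response element core was common among interferon genes. RefSeq promoter windows of 300 bases, from 250 before to 50 after a start, were matched for 30 of the 41 genes, and 17 of these 30 (56.7%) held this core on either strand. It was found in 4.0% of the 8479 measured genes that had a window, and in 3.57% of all 35116 windows. Of the 20 matched genes called higher 13 held it, of the 4 called lower 0 did, and of the 6 that did not pass 4 did. The 4 without a match among the lower genes were IRF1, IFI27L1, TRIM25 and STAT2. Among those called higher, CMPK2, SP100, HERC6, IFNAR1, JAK1, ADAR and IFI35 had no match. The number of cores did not follow the order of the fold changes: IFIT5 and IFIH1, with 3 sites each, were not called, whereas IFI44 and RSAD2, with 1 site each, were raised at least 2-fold. IFIT3 had 4 sites over its windows, and IFIT1 and ISG15 had 2 each.

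Other sequence cores were less common in the set. The STAT dimer core TTCNNNGAA, a palindrome in its fixed letters, lay in 5 of the 30 genes (16.7%), namely BST2, PARP14, IRF1, IRF9 and IFI35, against 8.66% of measured genes and 7.66% of all windows. The ETS family core CCGGAAGT, of the kind that ERF and its relatives bind, lay in 1 of the 30 (3.33%), JAK1, against 11.0% of measured genes and 4.14% of all windows. No core of these 3 contains another, but in the window of BST2 a STAT core overlaps a response element core. A match of letters is a description and not evidence of binding.

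The response element core also occurred outside the set. Among measured genes that are not in the set, 290 had 1 site and 77 of them (26.6%) were called higher, against 26.7% of the 8127 with none. With 2 or more distinct sites there were 32 genes, of which 10 (31.2%) were called higher and 4 (12.5%) lower. Of the genes outside the set with no site, 25.2% were called lower. The median fold change (log2) was 0.06 for the 32 genes, against 0.00972 for genes with no site, in the authors' deposited table. In the set itself the median was 0.49 for the 17 genes with a site and 0.17 for the 13 without. The 10 raised genes outside the set, chosen by this count after values were seen, include the antibody receptor and ubiquitin ligase TRIM21 (0.54), the ubiquitin ligase TRIM26 (0.37), the helicase relative DDX60L (0.26) and 2 parts of antigen presentation, B2M (0.28) and TAPBP (0.21), in the authors' deposited table. The other 5 were STS, OR2W3, DAGLB, SMARCA5 and NFIX. TAP1, the peptide transporter of antigen presentation, also had 2 or more sites and was not called, at -0.02 in the authors' deposited table. Among others with 2 or more sites and no call were IFI27 (0.52), CD274 (-0.02) and DDX60 (-0.03) in the authors' deposited table. Called lower were 4 of the 32, BBC3 (-1.08), which promotes apoptosis, the transcription factor ATF5 (-0.91), GCA (-0.46) and MVB12A (-0.39) in the authors' deposited table, and BBC3 and ATF5 had the largest changes of the 32.

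**Figure D2:**
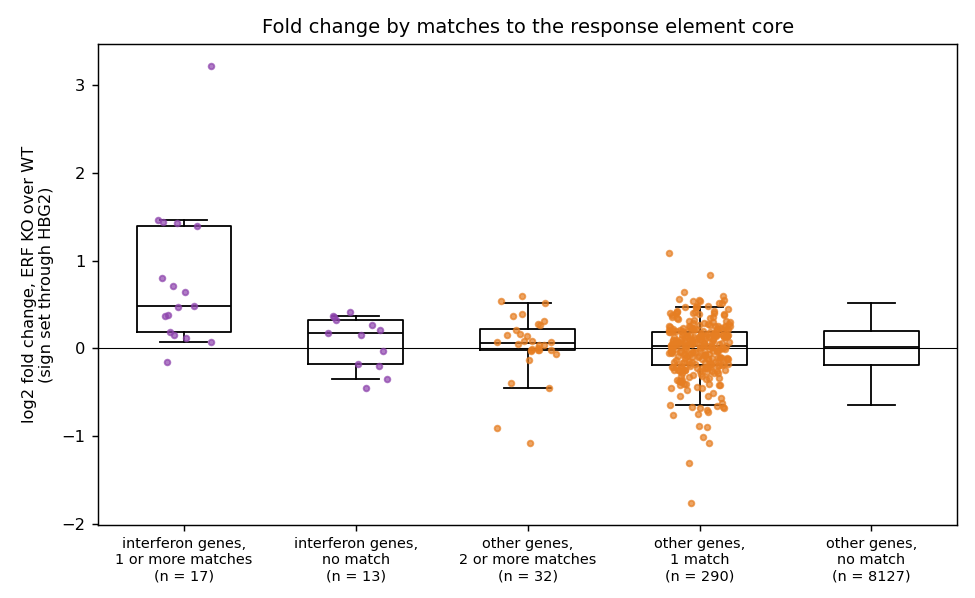
Log2 fold change (y axis, libraries labelled ERF knockout over wild type, sign set through HBG2) of measured genes by the number of distinct response element cores in their promoter windows. Boxes span the quartiles with the median as a line and whiskers the 5th to 95th percentile; points are single genes, left out for the largest class. The 17 interferon genes with a site have a median of 0.49, and the median was 0.00972 for genes outside the set with no site and 0.06 for those with 2 or more, whose values run from -1.08 (BBC3) to 0.60 (STS).

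The IFIT genes encode RNA-binding proteins with tetratricopeptide repeats that hold back viral RNA from translation. IFIT1 (ENSG00000185745) rose by 1.43 ± 0.09 (SE) on the log2 scale, a 2.69-fold increase (95% interval 1.23 to 1.62 in log2, edgeR adjusted p = 1.23e-06), in the authors' deposited table. IFIT2 (ENSG00000119922) stood at 1.39 ± 0.09 (SE, edgeR adjusted p = 1.77e-06), and IFIT3 (ENSG00000119917), which stabilises IFIT1 on RNA, at 1.46 ± 0.10 (SE, edgeR adjusted p = 2.72e-06), in the authors' deposited table. These 3 values lie within 1 standard error of each other. IFIT5 (ENSG00000152778), which binds RNA on its own, was not called, at 0.12 (95% interval -0.11 to 0.35, edgeR adjusted p = 0.358) in the authors' deposited table. The upper end of that interval lies below the lower end for each of the other 3, although all 4 genes lie in 1 cluster on chromosome 10 and IFIT5 is the coding neighbour of IFIT1. By position in the order of p, IFIT1 was number 114 of 11976 genes, IFIT2 number 142 and IFIT3 number 179 in the authors' deposited table. Of the exonic bases of IFIT2, 1.58% are shared with LIPA on the opposite strand, which was not called, at 0.11 in the authors' deposited table.

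IFI44 and OASL had the largest fold changes of the set, at a low mean CPM. IFI44 (ENSG00000137965), a cytoplasmic protein named for its induction by interferon, was 9.30-fold higher, at 3.22 ± 0.52 (SE, 95% interval 2.07 to 4.36, edgeR adjusted p = 0.000543), and its increase was the number 2 of all 11976 genes in the authors' deposited table. OASL (ENSG00000135114), a relative of the oligoadenylate synthetases that lacks their enzymatic activity and promotes RIG-I signalling, was 6.61-fold higher, at 2.73 ± 0.28 (SE, edgeR adjusted p = 3.64e-05), number 5 of all genes in the authors' deposited table. Mean expression was 1.57 log2 CPM for IFI44 and 0.08 log2 CPM for OASL in the authors' deposited table, below the median of 4.64 over all genes, and fold changes at this level depend on the prior count that edgeR adds.

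The other antiviral effectors were raised in part. RSAD2 (ENSG00000134321), or viperin, a radical enzyme that makes a chain-terminating nucleotide, stood at 1.39 ± 0.10 (SE, 2.63-fold, edgeR adjusted p = 2.35e-06) in the authors' deposited table. Its divergent neighbour on chromosome 2, the nucleotide kinase CMPK2, stood at 0.37 (95% interval 0.27 to 0.48), which does not reach the interval of RSAD2, 1.18 to 1.61, in the authors' deposited table. The genes thus rose together but by unequal amounts; the difference itself was not tested. IFI6, an inhibitor of apoptosis and of flavivirus replication, stood at 0.80 ± 0.16 (SE), BST2, the tetherin that holds budding virions, at 0.64 ± 0.06, and SAMD9, which restricts poxviruses, at 0.49 ± 0.05 in the authors' deposited table. IFI35, a leucine zipper protein, was called by a narrow margin at 0.32 (edgeR adjusted p = 0.0273) in the authors' deposited table.

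Among the effectors not raised, the IFITM proteins, which block fusion of entering viruses, stood at -0.09 (IFITM2) and -0.15 (IFITM3), with intervals of -0.22 to 0.04 and -0.39 to 0.09 in the authors' deposited table. Both values are uncertain, because the IFITM genes are highly similar copies in 1 cluster and 22.7% of the exonic bases of IFITM2 are shared with IFITM1 in GENCODE 29. ISG20, an exonuclease that degrades RNA, was not called, at 0.07 (95% interval -0.22 to 0.36) in the authors' deposited table. IFI27L1, a relative of IFI27, was called lower, at -0.35 ± 0.08 (SE, edgeR adjusted p = 0.00478) in the authors' deposited table.

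**Figure D3:**
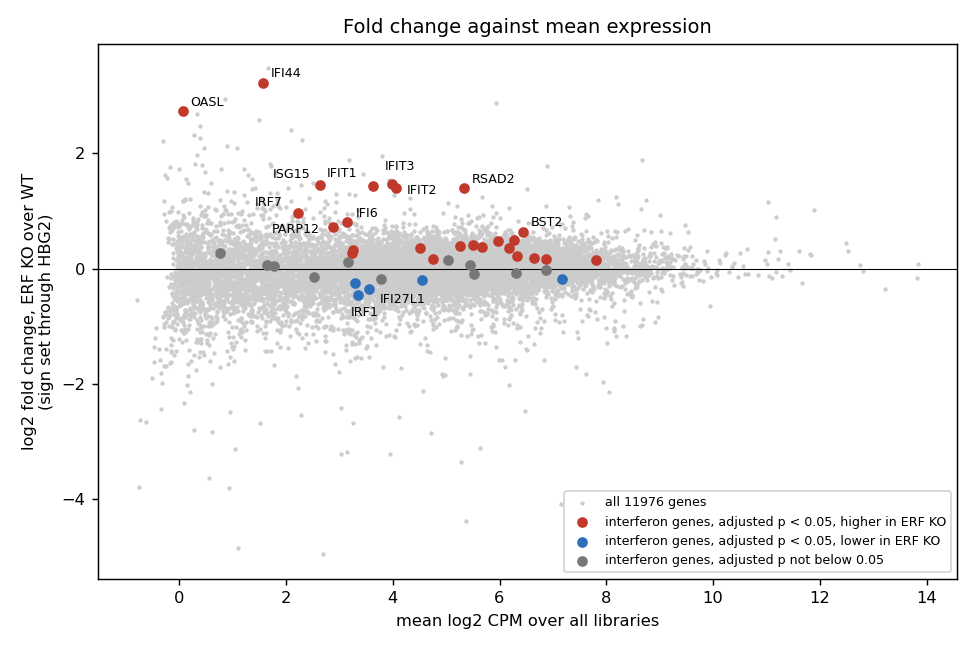
Log2 fold change (y axis, libraries labelled ERF knockout over wild type, sign set through HBG2) against mean log2 CPM over all libraries (x axis) for all 11976 genes in grey and the 41 interferon genes in colour by call. OASL and IFI44 lie at the low end of mean log2 CPM, at 0.08 and 1.57, whereas RSAD2, at 5.34, and BST2, at 6.44, were raised at a higher mean.

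ISG15 was higher, and the enzymes of its cycle differed in their calls. ISG15 (ENSG00000187608) stood at 1.44 ± 0.12 (SE) on the log2 scale, a 2.72-fold increase (95% interval 1.18 to 1.70, edgeR adjusted p = 7.35e-06), in the authors' deposited table. HERC5, the human ligase that attaches ISG15, stood at 0.38 ± 0.07 (SE, edgeR adjusted p = 0.00159) and its coding neighbour on chromosome 4, HERC6, which has this role in mouse, at 0.35 ± 0.08 (SE, edgeR adjusted p = 0.00531) in the authors' deposited table. USP18, which removes ISG15 and also blocks signalling at IFNAR2, stood at 0.27 (95% interval 0.08 to 0.47) in the authors' deposited table. TRIM25, a ligase for ISG15 and for ubiquitin that activates RIG-I, was called lower at -0.18 ± 0.04 (SE, edgeR adjusted p = 0.00564) in the authors' deposited table. UBE2L6, the conjugating enzyme of ISG15, counted below among the negative regulators and named here after its value was seen, was not called, at -0.03 (95% interval -0.15 to 0.08) in the authors' deposited table. TRIM25 shares 1.39% of its exonic bases with C17orf67 and 0.842% with DGKE.

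Of the 3 RNA sensors 1 was lower and none higher, and ADAR was higher. With ADAR counted, 25% of these 4 genes were called higher and 25% lower, against 24.9% and 25.9% of all genes. DDX58, which encodes RIG-I, was called lower at -0.26 (95% interval -0.47 to -0.05, edgeR adjusted p = 0.0391) in the authors' deposited table. IFIH1, which encodes MDA5, a sensor of long double-stranded RNA, was not called, at 0.15 (95% interval -0.01 to 0.31), nor was DHX58, which encodes the regulatory helicase LGP2, at 0.05 (95% interval -0.21 to 0.30), in the authors' deposited table. ADAR, which edits adenosine in double-stranded RNA and so keeps self RNA from MDA5, was higher by a small amount, at 0.15 ± 0.04 (SE, edgeR adjusted p = 0.0165) in the authors' deposited table. The highest upper end among the intervals of these 4 genes was 0.31 on the log2 scale.

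All 4 genes of the group of PARP9, PARP12, PARP14 and DTX3L were called higher, against 24.9% of all genes. SP100 was called higher too, but PML was not. Outside the set, PARP11 was called lower, at -0.40, and PARP10 was not called, at 0.14, in the authors' deposited table. PARP12, an ADP-ribosyltransferase, stood at 0.71 ± 0.10 (SE, edgeR adjusted p = 0.000184) and PARP14, of the same family, at 0.36 ± 0.06 (SE, edgeR adjusted p = 0.00044) in the authors' deposited table. PARP9 and its partner, the ubiquitin ligase DTX3L, stood at 0.47 (interval 0.36 to 0.58) and 0.19 (interval 0.08 to 0.30) in the authors' deposited table. These genes are transcribed away from each other on chromosome 3, and the response element core at chr3:122564332-122564341 (GRCh38.p14) is 1 site that lies in a promoter window of each. They share 217 exonic bases in GENCODE 29, or 2.43% of PARP9 and 3.70% of DTX3L. SP100, a component of the nuclear bodies that PML organises, stood at 0.41 ± 0.05 (SE, edgeR adjusted p = 0.000158), while PML was not called, at -0.07 (95% interval -0.17 to 0.04), in the authors' deposited table.

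Of the 5 IRF transcription factors 2 (40%) were called higher and 1 (20%) lower, against 24.9% and 25.9% of all genes. IRF7, which is induced by interferon and amplifies its production, was 1.94-fold higher, at 0.96 ± 0.12 (SE, edgeR adjusted p = 0.000101) in the authors' deposited table. IRF1, an activator that carries the STAT core shown above, was 1.37-fold lower, at -0.45 ± 0.09 (SE, edgeR adjusted p = 0.00194) in the authors' deposited table, the lowest value of the set. Of the exonic bases of IRF1, 22.0% are shared with C5orf56 on the opposite strand, which was also called lower, at -0.80 with a mean of -0.06 log2 CPM in the authors' deposited table, and without a stated strand setting the reads of this pair cannot be told apart. IRF2, an antagonist of IRF1, stood at 0.16 (edgeR adjusted p = 0.0335) in the authors' deposited table, and this call was lost when fold changes were centred on well expressed genes (Benjamini-Hochberg adjusted p = 0.0804 from the derived SE, edgeR's F). IRF3, the factor that the sensors activate, was not called, at 0.06 (95% interval -0.07 to 0.19), and shares 19.3% of its exonic bases with BCL2L12 on the opposite strand, which was called higher, at 0.26, in the authors' deposited table. IRF9, which binds DNA in the complex with STAT2, was not called, at 0.27 in the authors' deposited table. Its 95% interval was wide, -0.10 to 0.64, at a mean of 0.77 log2 CPM in the authors' deposited table. IRF9 shares 48.4% of its exonic bases with a coding gene on the same strand that is not in that table. The value and the mean of IRF9 are therefore uncertain.

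Of the 5 genes of the receptor, its kinases and STAT2, 2 (40%) were called higher and 1 (20%) lower, against 24.9% and 25.9% of all genes. These changes were all small. IFNAR1 was called higher at 0.21 ± 0.05 (SE, edgeR adjusted p = 0.0031) and JAK1 at 0.17 ± 0.05 (SE, edgeR adjusted p = 0.0158) in the authors' deposited table. TYK2 was not called, at -0.03 (95% interval -0.14 to 0.07), and IFNAR2 was not called, at -0.18 (edgeR adjusted p = 0.0903), in the authors' deposited table. IFNAR2 lies on the same strand as a readthrough gene that shares 44.2% of its exonic bases in GENCODE 29, so its value is uncertain. STAT2 was called lower at -0.20 ± 0.06 (SE, edgeR adjusted p = 0.0155) in the authors' deposited table. The range of these 5 signalling genes, from -0.20 to 0.21, stayed below the value of each of the 7 effectors raised at least 2-fold.

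The other genes of the pathway were read from lists of receptors and STATs, negative regulators, nucleic acid sensing and further interferon-stimulated genes. Interferon ligand genes were not analysed here. Of the 8 further receptors, JAKs and STATs reported here, 3 (37.5%) were called lower, against 25.9% of all genes, 0 higher, against 24.9%, and 5 did not pass (edgeR; 4 at an unadjusted p below 0.05), with a median of -0.11 in the authors' deposited table. JAK2, the kinase of the erythropoietin receptor, stood at -0.65, STAT5B at -0.22 and STAT5A at -0.13 in the authors' deposited table. All 3 serve the erythropoietin receptor, whose own gene EPOR was not called, at 0.05 in the authors' deposited table. A link of these decreases to that receptor was not tested.

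Of the 20 negative regulators reported here, 4 (20%) were called higher and 6 (30%) lower, against 24.9% and 25.9% of all genes, with a median of 0.02 in the authors' deposited table. The higher ones were the STAT inhibitors PIAS3 (0.57) and PIAS1 (0.38), the antibody receptor TRIM21 (0.54) and the phosphatase PTPN1 (0.22) in the authors' deposited table. Those with the largest decreases were TNFAIP3 (-1.18), which restrains NF-kB, RNF125 (-0.88), a ligase that marks RIG-I for degradation, NLRX1 (-0.53), PTPN6 (-0.48) and SOCS2 (-0.32) in the authors' deposited table.

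Nucleic acid sensing genes had 14 of 27 (51.9%) called higher and 5 (18.5%) lower, against 24.9% and 25.9% of all genes, with a median of 0.17 in the authors' deposited table. ZC3HAV1, the zinc-finger antiviral protein that recognises CpG in viral RNA, had the largest increase and stood at 1.08 ± 0.05 (SE, edgeR adjusted p = 1.78e-07) in the authors' deposited table. The helicase ZNFX1 (0.55), the Toll-like receptor kinase IRAK1 (0.55), the adaptor TICAM1 (0.54) and EIF2AK2 (0.48), the RNA-activated kinase PKR, followed in the authors' deposited table. The lower ones were the DNA sensor cGAS (gene MB21D1, -0.43), its adaptor STING (TMEM173, -0.22), the RIG-I adaptor MAVS (-0.23), RIOK3 (-0.25) and RNASEH2B (-0.17) in the authors' deposited table.

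Further interferon-stimulated genes had 14 of 39 called higher, 6 (15.4%) lower, against 25.9% of all genes, and 19 without a call, their median being 0.14 in the authors' deposited table. HELZ2 (0.96), TDRD7 (0.61), ZNFX1 (0.55), LGALS3BP (0.54) and LY6E (0.42) had the largest increases in the authors' deposited table. WARS, the tryptophan tRNA synthetase, which interferon induces and which is also an amino acid response gene, had the largest decrease at -1.30, followed by APOL6 (-1.10), the nucleotidase NT5C3A (-0.56), PARP11 (-0.40) and APOL1 (-0.38) in the authors' deposited table. These 39 genes had 35.9% called higher, against 61.0% in the set of 41 and 24.9% over all genes, and ZNFX1 is counted here and among the sensing genes.

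**Figure D4:**
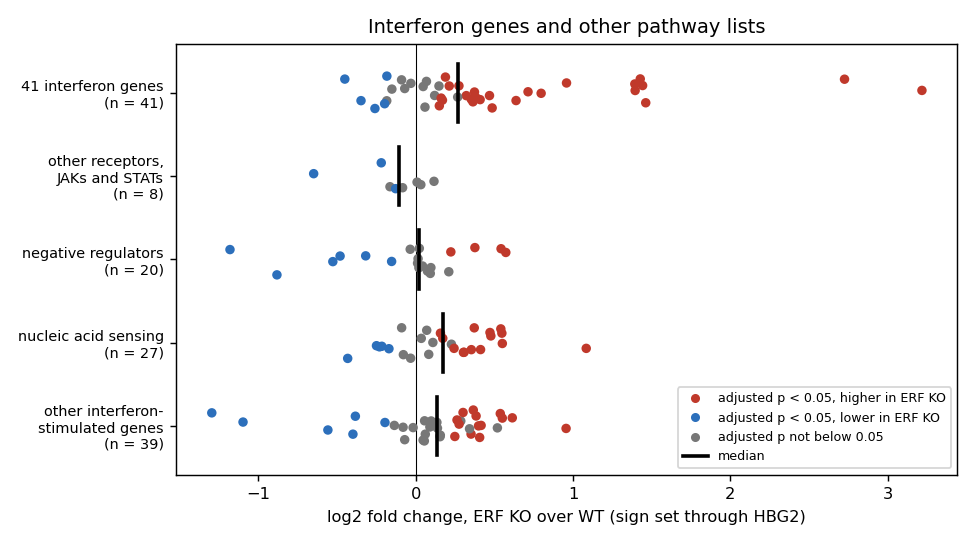
Log2 fold change (x axis, libraries labelled ERF knockout over wild type, sign set through HBG2) of the 41 interferon genes and of 4 lists of other pathway genes. Each point is a gene coloured by its call, and black lines are medians, which run from -0.11 for other receptors, JAKs and STATs to 0.27 for the 41 interferon genes.

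The spread behind these values differed between genes. The derived standard error of a gene was set beside the median of the 200 genes nearest to it in mean expression. Over the 41 genes the ratio had a median of 1.04, and 26 (63.4%) lay above 1, against 50.2% of all genes. Within the set, IFI44 stood apart with a standard error 3.78 times that of its neighbours, and only 0.626% of all genes exceeded 2 times. Such a spread was not particular to interferon genes. Of the 20 erythroid markers, 5 (25%) exceeded 2 times, among them HBD (3.01) and SLC4A1 (2.82), and HBG2, which set the sign, stood at 2.40. IFI6 had a ratio of 1.77 and RSAD2 of 1.73, whereas IFIT1 (1.08), ISG15 (1.12) and PARP12 (0.992) lay near 1. Outside the set, IFI27, among the most interferon-responsive genes, had a ratio of 3.10 and was not called, at 0.52 (edgeR adjusted p = 0.0552) in the authors' deposited table. Without values per library, it cannot be seen which library carries this spread.

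**Figure D5:**
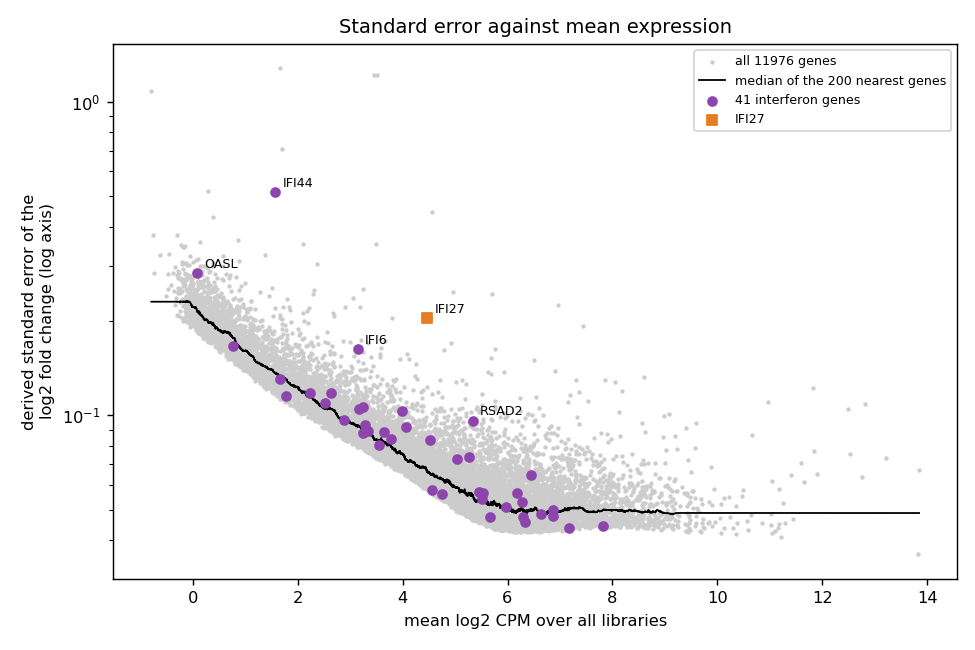
Derived standard error of the log2 fold change (y axis, log scale) against mean log2 CPM over all libraries (x axis) for all 11976 genes in grey, the 41 interferon genes in purple and IFI27 in orange. The black line is the median of the 200 genes nearest in mean expression, and IFI44 and IFI27 lie 3.78 and 3.10 times above it.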

How the data were processed

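Trizol extraction was followed by Illumina TruSeq library construction, per the labels' protocols; neither the strand setting of the counting nor the filter or scaling used is known. The submitters' processing notes list, with no roles, the tools TopHat2 (2.0.4), HTSeq, SAMtools, edgeR (2.6.12) and Cuffdiff and the build hg19/GRCh37. Per the file headers, the authors deposited per gene a log2 fold change, the mean log2 CPM, an F score of a quasi-likelihood test and both the raw p-value and the adjusted p-value (edgeR). What Pre, part of the name of the comparison, stands for is not explained. Of 11979 rows, 3 name no gene and hold 21.5% of the CPM; they were left out of all counts. There were 0 columns of values per sample, so depth is unknown and no model was refitted: the planned test for such a table, the deposited adjusted p below 0.05, was used.

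The deposited log2 fold changes were multiplied by -1, so that HBG2 is higher in the libraries labelled knockout. The standard error (SE) is the absolute log2 fold change over the square root of F, and intervals rest on a t distribution whose 10.34 degrees of freedom were estimated from F and p, more than 5 libraries alone give. Both are approximations. The steps were run on simulated normal values whose F was built with the same formula. That run checks the code and cannot test these approximations. Recomputed Benjamini-Hochberg values differed from the deposited ones by at most 0.676%. Promoter windows are RefSeq's (GRCh38.p14), matched for 8479 genes by identifier or symbol; exon overlaps are from GENCODE 29. Python 3.11.15, pandas 2.3.3 and scipy 1.17.1 were used. All 41 genes found were named; from each pathway list, up to 5 called genes per direction were. The genes and lists were chosen with earlier results of these data known. Some genes of the pathway lists are not reported here and were left out of the counts of their lists.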

Additional observations from a re-analysis of the deposited data

How the results depend on the processing

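The counts of interferon genes called in the libraries labelled knockout, 25 higher and 5 lower, were identical when p-values were adjusted over gene rows only or fold changes were centred on the median of all genes. They were 24 and 5 with a minimum of 1 log2 CPM, over 39 genes, and when centred on the median of genes at 5 log2 CPM or more. At an adjusted p below 0.01 they were 20 and 3, with Bonferroni adjustment 9 and 0 (edgeR; 5 lower at an unadjusted p below 0.05), and with a 2-fold minimum 7 and 0, each by construction. With the opposite sign they were 5 and 25, and the median log2 fold change was -0.27 in place of 0.27. Without the 8 genes whose exons overlap another measured gene, a choice made after seeing the data, they were 20 and 3 of 33. Genes that overlap only a gene not measured were kept. Over all 11976 genes, the Bonferroni counts were 314 higher and 464 lower, and at an adjusted p below 0.01 they were 2093 and 2206. With the minimum of 1 log2 CPM, 2856 of 10797 genes were higher and 2846 lower. Centring on genes at 5 log2 CPM or more gave 2566 higher and 3532 lower, and centring on all genes 3020 and 3077. With the 2-fold minimum, 1.01% of all genes were higher and 2.26% lower. No paired analysis was possible because the deposited table has no columns of samples, so the fit with the replicate numbers as a block, leaving out each replicate and DESeq2 were not run. Depth per library is unknown, and OASL, IRF9 and IFI44 had the lowest mean log2 CPM of the set, at 0.08, 0.77 and 1.57.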
